A study of Mus musculus with 8 samples.

Results

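The 9 genes described here encode the enzymes and carrier that move nitrogen between glutamine, glutamate, alanine and aspartate in the mouse heart: Glul, Glud1, Got1, Got2, Gpt, Gpt2, Oat, Adssl1 and Slc25a12. They were taken by symbol from a deposited table of 55573 genes, and all 9 were among the 17411 genes that passed the filter on low counts. RNA sequencing gave their transcript counts in hearts from male mice on the C57BLKS/J background, 24 weeks of age, with 4 libraries from db/db mice and 4 from db/m mice. Mice homozygous for the db allele of the leptin receptor gene become obese and diabetic, while db/m mice carry a single copy of it and serve as non-diabetic controls. The labels leave unsaid whether the libraries of a genotype are different animals, so the p-values speak only to the variation among these libraries, some of which may be technical.

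Glutamate is the hub of amino acid nitrogen. Aminotransferases pass its amino group to oxaloacetate, giving aspartate, or to pyruvate, giving alanine, while glutamate dehydrogenase releases it as ammonia and glutamine synthetase fixes ammonia onto glutamate to give glutamine. In heart muscle the aspartate aminotransferases and the aspartate-glutamate carrier also form part of the malate-aspartate shuttle, which carries reducing equivalents from the cytosol into mitochondria, and aspartate feeds the purine nucleotide cycle through adenylosuccinate synthase.

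Library totals ran from 19541757 to 22249911 counts. The leptin receptor gene Lepr averaged 5.76 ± 1.36 CPM in db/db and 10.7 ± 7.02 CPM in db/m (SD, n = 4 each), where CPM is the usual depth-scaled count, on library sizes adjusted by TMM; the db mutation alters splicing, so this total does not identify the genotype. Libraries of the control group stood apart. In db/m replicates 1 and 3 all 7 atrial markers, 9 of 10 adipocyte markers and 6 of 7 fibroblast markers lay above the other 6 libraries, and the summed level of the atrial list was 47.9 to 146 CPM in db/db and 40.0 to 3996 CPM in db/m, with 1738 and 3996 CPM in those replicates. The adipocyte list summed to 336 to 644 CPM in db/db and 337 to 1134 CPM in db/m, with 694 and 1134 CPM in replicates 1 and 3. Of its markers, Ucp1 had 1765 and 8220 counts in db/m replicates 1 and 3 and 0 to 2 in the other 6 libraries. Adipoq had 1082 and 2243 counts against 0 to 10, and Plin1 had 1197 and 5241 against 1 to 19. No marker of the atrial or the adipocyte list was at 0 in all libraries. In db/m replicate 3, long genes read higher relative to short ones than in any other library, with a rank correlation over genes between a gene's deviation and its exon length of 0.439, against -0.331 to -0.036 in the other 7. In whole tissue, fewer cells of a type and less RNA per cell cannot be told apart.

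The clearest difference among the 9 lay in Glul, glutamine synthetase, whose fitted level in db/db hearts was 1.61 times that in db/m hearts, although the adjusted test did not call it. Of the others, Adssl1, Got2 and Oat also had every db/db library above every db/m library, with smaller fold changes, and Got1, Glud1, Gpt, Gpt2 and Slc25a12 overlapped between genotypes. Log2 fold changes of db/db over db/m were positive in 8 of the 9, against 47.7% of tested genes, and had a median of 0.33, against -0.02 over all 17411 tested genes. Groups did not overlap in 4 of the 9, all higher in db/db, a pattern found in 5.04% of tested genes. Those same 4 had an unadjusted p under 0.05, a share of 5.12% among tested genes for higher levels, but 0 of the 9 passed 0.05 once p-values were adjusted over all tested genes (edgeR, Benjamini-Hochberg), where the background was 0.00574%. DESeq2 and limma-voom each called Glul alone among the 9 (backgrounds of 2.17% and 0.580%), as did edgeR without db/m replicate 3 (background 0.600%). Db/m replicate 3 was the lowest of the 8 libraries in 7 of the 9 genes, against 32.1% of tested genes, and without it 7 of the 9 were positive, with a median of 0.14. Without db/m replicates 1 and 3, 5 of the 9 were positive, with a median of 0.10. Without any 1 of the db/db libraries the number with an unadjusted p under 0.05 was 2, Glul and Adssl1.

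**Figure D1:**
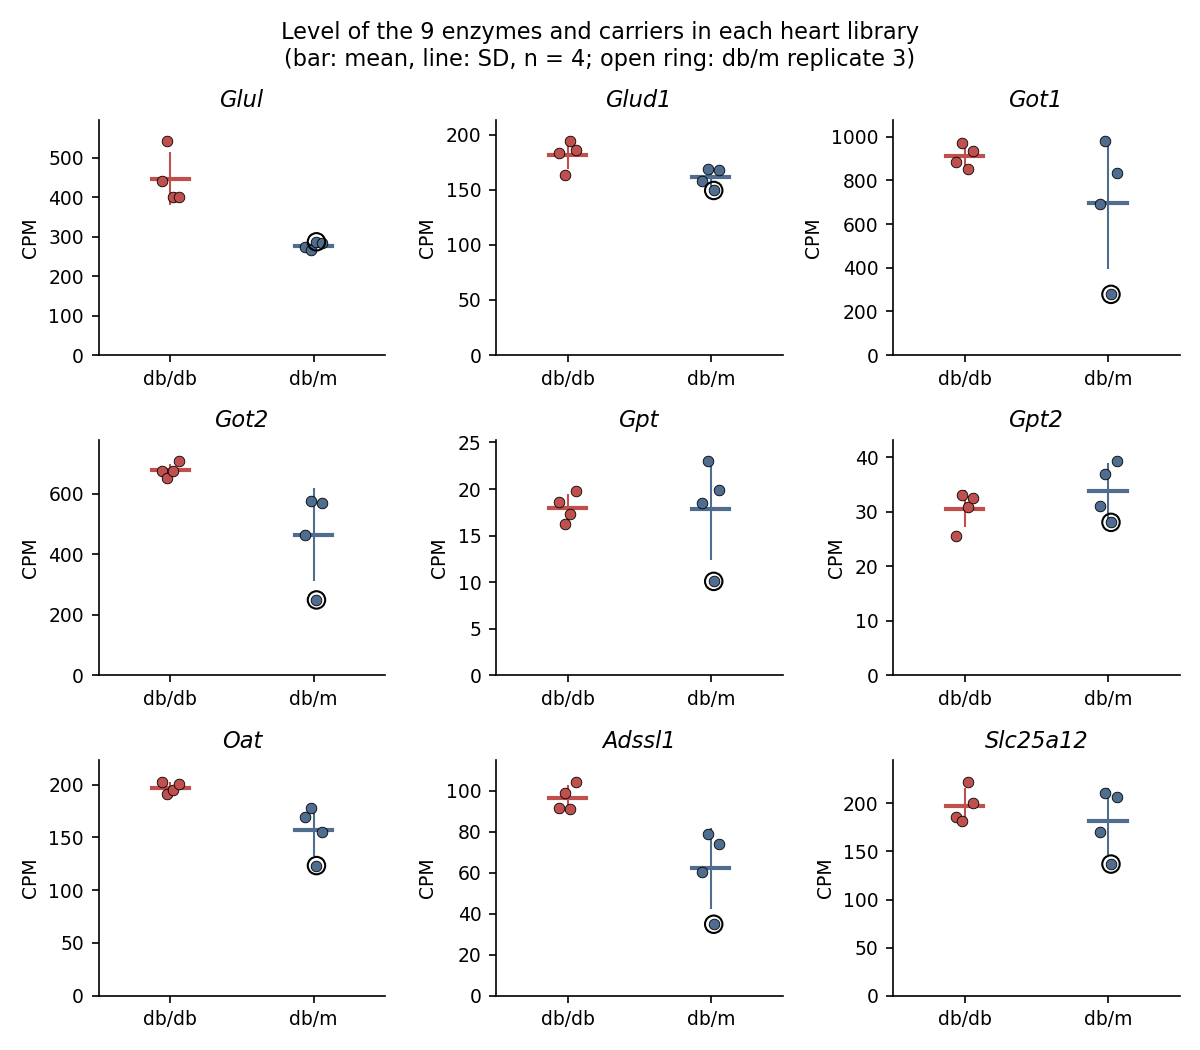
CPM of the 9 genes in each library, one panel per gene with its own linear axis from 0, db/db on the left and db/m on the right. Points are libraries, the horizontal bar is the mean, the vertical line the SD (n = 4), and the ring marks db/m replicate 3. Glul separates the genotypes, at 400.2 to 542 CPM in db/db and 267 to 287 CPM in db/m, and db/m replicate 3 is the lowest point in 7 panels.

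Glul (ENSMUSG00000026473, chromosome 1, 153899944 to 153909723, plus strand, mm10) makes glutamine from glutamate and ammonia. It had 442, 542, 400.2 and 400.4 CPM in db/db replicates 1 to 4, against 273, 267, 287 and 283 CPM in db/m replicates 1 to 4. The lowest db/db library was well above the highest db/m library, and the db/m libraries lay close together, those with atrial and adipocyte counts included. The means were 446 ± 66.9 CPM in db/db and 277 ± 9.02 CPM in db/m (SD, n = 4 each), a log2 fold change of 0.69 (SE 0.14, 95% interval 0.38 to 0.99). By unadjusted p (0.000516) Glul stood at position 62 of the 17411 genes, and its adjusted p was 0.136 by edgeR with Benjamini-Hochberg adjustment. The fold change changed little with the control libraries, at 0.71 without db/m replicate 3 and 0.69 without db/m replicates 1 and 3. The call did change with them and with the tool: the adjusted p was 0.0301 by edgeR without db/m replicate 3, 0.000173 by DESeq2 and 0.0236 by limma-voom, within a range of 0.000173 to 0.384 over 19 alternatives. The other 16 alternatives did not call Glul. The highest adjusted p, 0.384 by edgeR, came without db/db replicate 2, where the log2 fold change was 0.58.

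A close copy of Glul also held counts. Glns-ps1, a processed pseudogene of Glul on chromosome 11 (19720355 to 19721472), held 34224 counts over the 8 libraries beside 60478 for Glul. The 1122-base coding sequence of Glul and the pseudogene were 96.8% identical over 1126 aligned positions, with 24 mismatches and 12 gap positions, and 5.60% of 100-base windows held no difference at all. The stretch below runs from coding base 854 to base 943 of Glul, counted from the start codon in GENCODE M21 transcripts, and is shown because it holds the most differences in any 90 bases without a gap. Capitals mark the 5 positions at which the sequences differ.
Glul: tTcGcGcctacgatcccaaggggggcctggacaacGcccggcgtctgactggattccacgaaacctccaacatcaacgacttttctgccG
Glns-ps1: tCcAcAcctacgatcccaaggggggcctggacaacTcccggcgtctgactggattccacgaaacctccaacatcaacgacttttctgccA

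The pseudogene had 253, 254, 207 and 204 CPM in db/db replicates 1 to 4, against 155, 151, 234 and 168 CPM in db/m replicates 1 to 4. The db/m libraries lay below all db/db libraries except for db/m replicate 3, which lay among them. Its log2 fold change was 0.38 (SE 0.17; edgeR with Benjamini-Hochberg adjustment, adjusted p = 0.386). Counts of Glns-ps1 were 46.9% to 57.3% of those of Glul in db/db libraries and 56.4% to 81.7% in db/m libraries, the highest share again in db/m replicate 3. Summed, both had 604 to 797 CPM in db/db and 418 to 521 CPM in db/m, still without overlap, and the log2 fold change of the sum was 0.57 (SE 0.15, adjusted p = 0.225 by edgeR). How the authors assigned reads that fit both places is not given in the sources used here, so the level of Glul is uncertain. A gene on the opposite strand, Teddm2, shares 116 exon bases with Glul and held 218 counts in all.

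**Figure D2:**
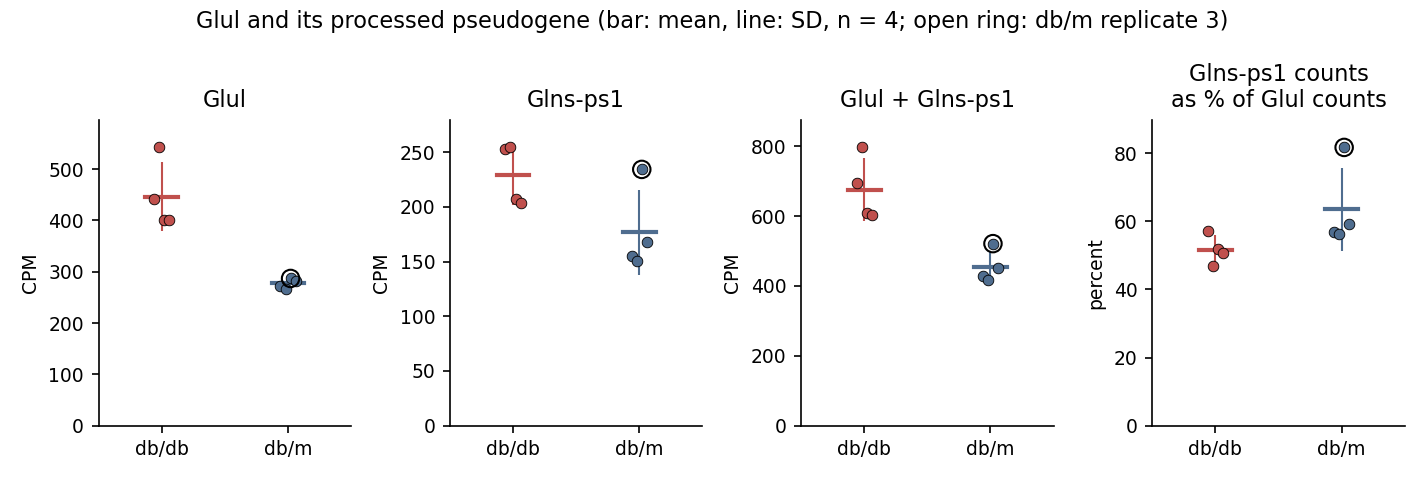
Glul, its pseudogene Glns-ps1 and their sum in CPM, and the counts of Glns-ps1 as a percentage of those of Glul, per library, with db/db left of db/m. Bars are means, lines SDs (n = 4) and the ring db/m replicate 3, which has 81.7% in the right panel against 46.9% to 59.3% in the other 7 libraries.

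Glud1 (ENSMUSG00000021794, chromosome 14, 34310727 to 34345265, plus strand), the mitochondrial glutamate dehydrogenase that converts glutamate to 2-oxoglutarate and ammonia, was nearly level. It ranged from 163.5 to 194 CPM in db/db and from 149 to 169 CPM in db/m. The groups overlapped through db/db replicate 2, and the log2 fold change was 0.17 (SE 0.11), with a 95% interval of -0.08 to 0.43, and 0.10 without db/m replicates 1 and 3. A partial pseudogene copy, Glud-ps, 97.6% identical where aligned, held 12704 counts beside 28787 for Glud1, and adding them gave 0.19. Reads may have been split between the gene and this copy, so the level of Glud1 is uncertain too.

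Got1 and Got2 encode the cytosolic and the mitochondrial aspartate aminotransferase, an enzyme pair of the malate-aspartate shuttle. Got2 (ENSMUSG00000031672, chromosome 8, 95864134 to 95888547, minus strand) had 674.5, 653, 674 and 706 CPM in db/db replicates 1 to 4, against 464, 576, 249 and 569 CPM in db/m replicates 1 to 4. All db/db libraries were higher, and they were also tighter, with an SD of 22.0 CPM against 153 CPM in db/m. The log2 fold change was 0.54 (SE 0.24, 95% interval 0.02 to 1.07; adjusted p = 0.378 by edgeR). It was 0.34 without db/m replicate 3 and 0.23 without db/m replicates 1 and 3 (edgeR adjusted p = 0.216 and 0.441, within 0.216 to 0.584 over the alternatives). A pseudogene 99.1% identical to its coding sequence, Got2-ps1, held 14117 counts beside 94592 for Got2, and adding them gave 0.50. Reads of these copies may have been split between them, so the level of Got2 is uncertain.

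Got1 (ENSMUSG00000025190, chromosome 19, 43499752 to 43524605, minus strand) had 884, 973, 851 and 934 CPM in db/db replicates 1 to 4, against 692.5, 980.0, 278 and 834 CPM in db/m replicates 1 to 4. The highest library of all was db/m replicate 2 and the lowest db/m replicate 3. Its log2 fold change of 0.39 (SE 0.31, edgeR adjusted p = 0.575) had a 95% interval of -0.31 to 1.08, and it was 0.13 without db/m replicate 3 and -0.00097 without db/m replicates 1 and 3. The log2 ratio of Got2 to Got1 counts per exon base, taken within each library, was -1.35 ± 0.10 in db/db and -1.44 ± 0.25 in db/m (SD, n = 4 each; exact permutation p = 0.629, two-sided). This ratio was negative in all 8 libraries, on the deposited exon lengths and without the counts of Got2-ps1.

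Slc25a12 (ENSMUSG00000027010, chromosome 2, 71271063 to 71367749, minus strand), the mitochondrial carrier that exports aspartate in exchange for glutamate, ranged from 182 to 223 CPM in db/db and from 137 to 211 CPM in db/m. The groups overlapped, and the log2 fold change was 0.12 (SE 0.16, 95% interval -0.23 to 0.48), which was 0.02 without db/m replicate 3 and -0.09 without db/m replicates 1 and 3. Its paralog Slc25a13, citrin, had 125 ± 11.6 CPM in db/db and 112 ± 28.0 CPM in db/m (SD, n = 4 each; log2 fold change 0.16, SE 0.19), and its fold change was 0.01 and -0.10 without those libraries. Per exon base the carriers were close, with a log2 ratio of Slc25a12 to Slc25a13 of -0.29 ± 0.16 in db/db and -0.24 ± 0.12 in db/m (SD, n = 4 each; exact permutation p = 0.629, two-sided).

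With all 8 libraries, the 5 other tested genes of the shuttle and of the mitochondrial glutamate carriers had positive log2 fold changes, with a median of 0.33, and in all 5 db/m replicate 3 was the lowest library. The median was 0.12 without db/m replicate 3, and without db/m replicates 1 and 3 it was -0.02, with 3 of the 5 negative, namely Mdh1, Slc25a13 and Slc25a22. Mdh2, the mitochondrial malate dehydrogenase, had 554 to 601 CPM in db/db and 173 to 505 CPM in db/m (log2 fold change 0.53, SE 0.28), and Slc25a11, the malate carrier, had 434 to 500.1 CPM in db/db and 161 to 421 CPM in db/m (0.49, SE 0.26). The genotypes did not overlap in either gene, but neither was called (edgeR adjusted p = 0.434 for each), and the values were 0.29 and 0.27 without db/m replicate 3 and 0.21 and 0.16 without db/m replicates 1 and 3. Slc25a22, a mitochondrial glutamate carrier, had 0.30 (SE 0.26), which was 0.12 without db/m replicate 3 and -0.06 without db/m replicates 1 and 3. Mdh1, the cytosolic malate dehydrogenase, had 0.33 (SE 0.31), and 0.07 and -0.02 without the same libraries. The 8 ventricular muscle markers summed to 31090 to 37860 CPM in db/db and 28290 to 36160 CPM in db/m, lowest in db/m replicate 3. The part of that library in these values was measured here by leaving it out, and what set it apart was not tested.

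**Figure D3:**
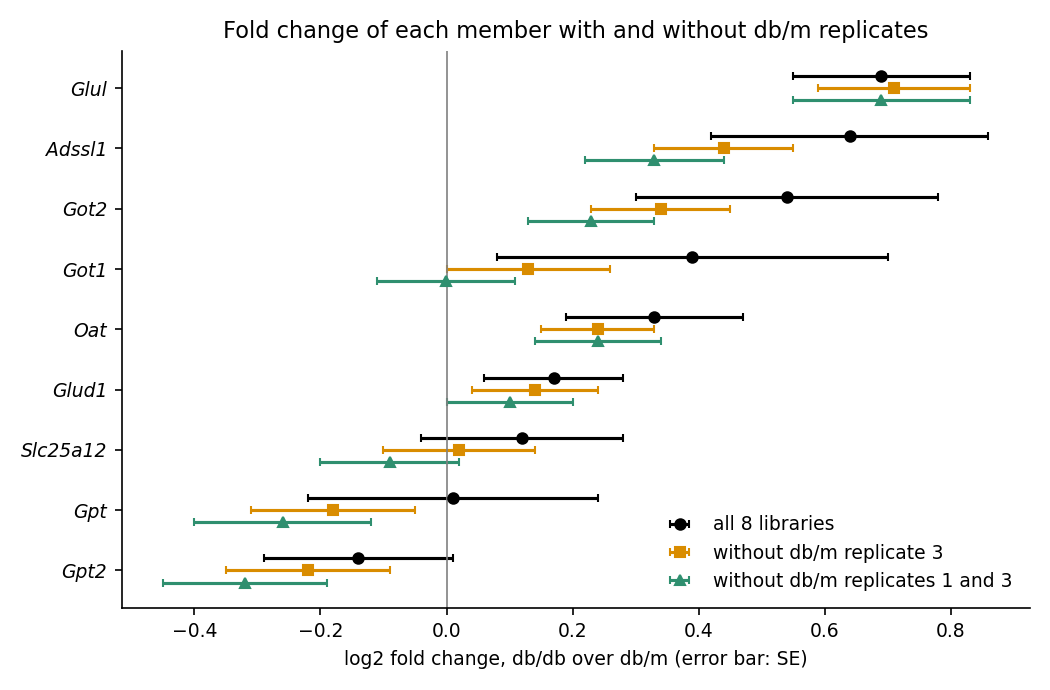
Log2 fold change of db/db over db/m for each gene from edgeR, with SE, in all 8 libraries (circles), without db/m replicate 3 (squares) and without db/m replicates 1 and 3 (triangles). Glul stays at 0.69 to 0.71, while Adssl1 goes to 0.33, Got2 to 0.23 and Got1 to -0.00097 when both libraries are left out.

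Gpt and Gpt2 encode the cytosolic and the mitochondrial alanine aminotransferase, which exchange amino groups between glutamate and pyruvate. They were the least abundant of the 9. Gpt (ENSMUSG00000022546, chromosome 15, 76695716 to 76699686, plus strand) had 16.3 to 19.7 CPM in db/db and 10.1 to 23.0 CPM in db/m, the lowest value in db/m replicate 3, at 244 counts. Its log2 fold change was 0.01 (SE 0.23, 95% interval -0.49 to 0.52) and was -0.18 without that library and -0.26 without db/m replicates 1 and 3. Gpt2 (ENSMUSG00000031700, chromosome 8, 85492576 to 85527560, plus strand) had 25.6 to 33.1 CPM in db/db and 28.0 to 39.2 CPM in db/m, and was the single member with a negative value, -0.14 (SE 0.15, 95% interval -0.47 to 0.18), which was -0.22 without db/m replicate 3 and -0.32 without db/m replicates 1 and 3. The log2 ratio of Gpt2 to Gpt per exon base was -0.18 ± 0.23 in db/db and 0.03 ± 0.36 in db/m (SD, n = 4 each; exact permutation p = 0.457, two-sided).

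Oat (ENSMUSG00000030934, chromosome 7, 132557478 to 132576398, minus strand), ornithine aminotransferase, links ornithine to glutamate and proline in mitochondria. It had 203, 191, 195 and 200.6 CPM in db/db replicates 1 to 4, against 169.8, 178, 123 and 155 CPM in db/m replicates 1 to 4. The genotypes did not overlap, although db/db replicate 2 and db/m replicate 2 lay close. The log2 fold change was 0.33 (SE 0.14, 95% interval 0.03 to 0.64; adjusted p = 0.357 by edgeR), and 0.24 without db/m replicate 3. Among 8 tested genes of proline and ornithine metabolism 5 were positive and 3 negative (median 0.06), but without db/m replicate 3, and also without db/m replicates 1 and 3, 2 were positive and 6 negative (medians -0.08 and -0.04). Slc25a15, the mitochondrial ornithine carrier that supplies Oat with its substrate, lay the other way, at 16.6 ± 2.17 CPM in db/db and 23.2 ± 3.26 CPM in db/m (SD, n = 4 each) without overlap. Its log2 fold change was -0.48 (SE 0.15; edgeR adjusted p = 0.296) and -0.54 without db/m replicate 3. Prodh, proline dehydrogenase, had -0.36 (SE 0.27), and -0.68 without db/m replicates 1 and 3. Pycr1, a pyrroline-5-carboxylate reductase, had 0.65 (SE 0.54), which was 1.08 without db/m replicate 3 and 1.57 (SE 0.59; edgeR adjusted p = 0.368) without db/m replicates 1 and 3. Its counts were low and uneven, with 1.105 to 5.50 CPM in db/db and 0.933 to 3.56 CPM in db/m. Db/db replicate 3 had 24 counts, beside 19 and 25 in db/m replicates 2 and 4.

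Adssl1 (ENSMUSG00000011148, chromosome 12, 112620045 to 112641360, plus strand) encodes the muscle adenylosuccinate synthase, which joins aspartate to IMP in the purine nucleotide cycle. It had 91.7, 98.7, 90.9 and 104 CPM in db/db replicates 1 to 4, against 60.3, 78.8, 34.8 and 74.2 CPM in db/m replicates 1 to 4. Again every db/db library was higher, and db/m replicate 3 was far below its group. The log2 fold change was 0.64 (SE 0.22, 95% interval 0.14 to 1.13; edgeR with Benjamini-Hochberg adjustment, adjusted p = 0.319). It was 0.44 without db/m replicate 3 and 0.33 without db/m replicates 1 and 3 (edgeR adjusted p = 0.116 and 0.268, within 0.116 to 0.551 over the alternatives).

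Among the other tested genes of the purine nucleotide cycle 3 of 4 had negative values, with a median of -0.31. The median was -0.14 without db/m replicate 3, and -0.05 with 2 of 4 negative without db/m replicates 1 and 3. Ampd3, an AMP deaminase, had 34.3 to 43.0 CPM in db/db and 44.7 to 65.5 CPM in db/m, without overlap, and a log2 fold change of -0.48 (SE 0.14; edgeR adjusted p = 0.286), which was -0.64 (SE 0.12; edgeR adjusted p = 0.0597) without db/m replicates 1 and 3. Adss, the adenylosuccinate synthase of non-muscle tissues, averaged 12.8 ± 1.18 CPM in db/db and 16.02 ± 2.88 CPM in db/m (SD, n = 4 each; -0.32, SE 0.16), and Ampd2 had -0.30 (SE 0.26). Without db/m replicate 3 they had -0.19 and -0.09, and without db/m replicates 1 and 3 Adss had -0.13 and Ampd2 0.15. Ampd1, the deaminase of skeletal muscle, had 0 counts in every library, which allows up to 0.161 CPM at a floor of 3 counts. The log2 ratio of Adssl1 to Adss per exon base was 3.97, 4.03, 4.11 and 3.99 in db/db replicates 1 to 4, against 3.01, 3.65, 1.91 and 3.49 in db/m replicates 1 to 4. The db/db libraries were nearly identical and all above the db/m libraries, which spread widely. The difference was 1.01 (exact permutation p = 0.0286, two-sided, the smallest that 4 against 4 libraries allow; 0.0714 after Benjamini-Hochberg adjustment over 5 ratios computed). It was 0.64 without db/m replicate 3 and 0.46 without db/m replicates 1 and 3. Adssl1 has 2090 exon bases and Adss 4531. A ratio within a library does not remove the higher reading of long genes in db/m replicate 3, whose part here was not tested.

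**Figure D4:**
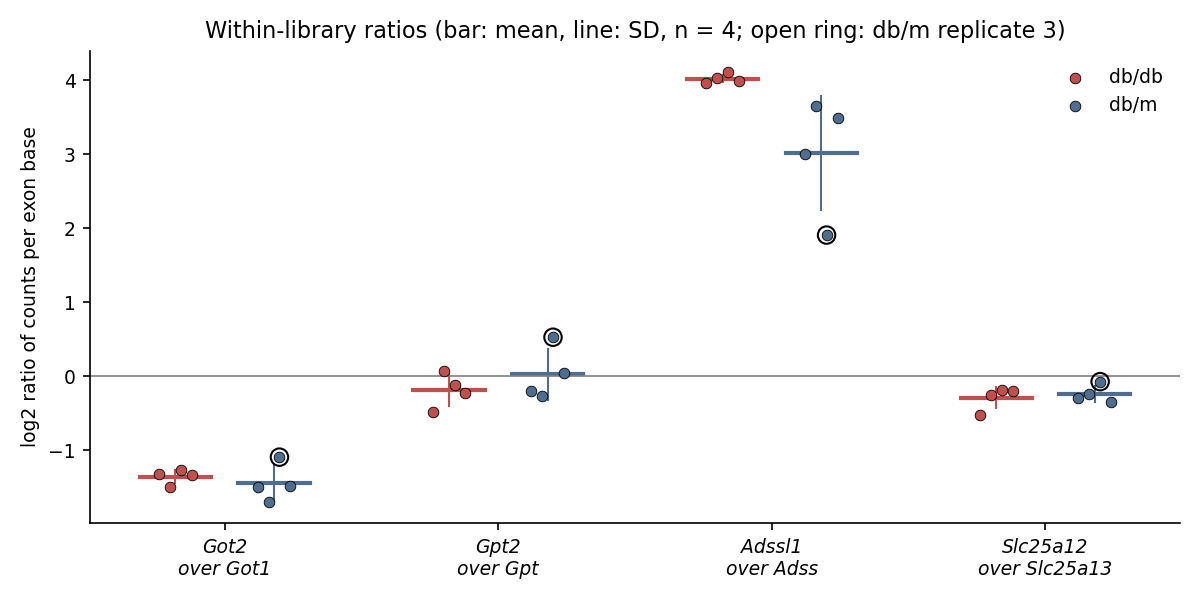
Log2 ratio of counts per exon base between gene pairs within each library, db/db left of db/m for each pair. Points are libraries, bars means, lines SDs (n = 4) and rings db/m replicate 3. Adssl1 over Adss does not overlap between genotypes, with a difference of 1.01, and the other 3 ratios shown overlap.

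Per kilobase of exon, the order of the 9 by mean level in db/db was Got1, Got2, Glul, Oat, Adssl1, Glud1, Slc25a12, Gpt and Gpt2. Got1 had 359 ± 21.2 CPM per kilobase in db/db and 274 ± 119 in db/m (SD, n = 4 each), and stood at position 207 of the tested genes by this level over all libraries. Gpt and Gpt2, at 6.12 ± 0.509 and 5.41 ± 0.601 CPM per kilobase in db/db, stood at positions 6995 and 7290. In db/db the neighbours Got2 and Glul, Adssl1 and Glud1, and Gpt and Gpt2 overlapped over libraries. The order in db/m differed only in that Glud1 preceded Adssl1. In db/m the same neighbours overlapped over libraries, and so did Got1 and Got2, and Glul and Oat. Both orders leave out pseudogene counts, which over all libraries were 56.6% of those of Glul, 44.1% of Glud1 and 14.9% of Got2. These shares take no account of length, and the pseudogenes are shorter than their genes. Per kilobase, Glns-ps1 had 205 CPM in db/db and 158 in db/m, above Glul at 118 and 73.3. Glud-ps had 124 and 106, above Glud1 at 43.2 and 38.3. Got2-ps1 had 70.3 and 60.0, below Got2 at 140 and 96.3. The places of Glul, Glud1 and Got2 in the order are therefore uncertain.

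Neighbouring genes of glutamine and glutamate metabolism were mostly lower in value in db/db. Of 56 listed neighbours of the 9 in all pathways, 44 were tested, 21 were positive and 23 negative, the median was -0.02, and by edgeR with Benjamini-Hochberg adjustment 0 passed (1 higher and 5 lower at an unadjusted p under 0.05, against 5.12% and 7.84% of tested genes; DESeq2 called Abat and limma-voom 0). The genotypes did not overlap in 4 higher and 5 lower neighbours, against 5.04% and 4.61% of tested genes. In the list of glutamine and glutamate neighbours 12 of 15 were negative, with a median of -0.17, and 11 of 15 (median -0.08) when db/m replicate 3 or both db/m replicates 1 and 3 were left out. Abat, the transaminase that degrades GABA, had 5.68 to 17.2 CPM in db/db and 20.99 to 43.8 CPM in db/m, without overlap (log2 fold change -1.32, SE 0.36; edgeR adjusted p = 0.246, DESeq2 0.0265), and -0.79 without db/m replicates 1 and 3. Cad, which starts pyrimidine synthesis with glutamine nitrogen, had -0.44 (SE 0.16), and Gmps, GMP synthase, -0.37 (SE 0.18). Both were without overlap, but for Gmps narrowly, with at most 42.4 CPM in db/db and at least 43.1 CPM in db/m, where db/m replicate 3 had 77.3 CPM. Cad and Gmps had -0.28 and -0.14 without db/m replicate 3 and -0.30 and -0.20 without db/m replicates 1 and 3.

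Genes of aspartate and asparagine metabolism were mixed, with 6 of 9 positive and a median of 0.24, and 7 of 9 with a median of 0.17 without db/m replicates 1 and 3. Dars, the cytosolic aspartyl-tRNA synthetase, had 42.4 ± 3.89 CPM in db/db and 31.9 ± 5.29 CPM in db/m (SD, n = 4 each; log2 fold change 0.41, SE 0.15; edgeR adjusted p = 0.322), with 0.27 without db/m replicates 1 and 3, and Nars, for asparagine, had 0.28 (SE 0.14). Nat8l, which makes N-acetylaspartate and is a gene of brown fat as well as brain, had 2.40 to 3.52 CPM in db/db and 2.75 to 67.0 CPM in db/m, highest in db/m replicates 1 and 3. Its log2 fold change of -2.97 (SE 0.87) was -1.53 without db/m replicate 3 and -0.23 without both. Among glutamate transporters of the plasma membrane Slc1a3 had -1.45 (SE 0.72), and 0.93 (SE 0.30; edgeR adjusted p = 0.266) without db/m replicates 1 and 3 (-0.54 without db/m replicate 3 alone). Slc1a1 had -0.47 (SE 0.38) and Slc1a2 0.54 (SE 0.37), with -0.83 and 0.44 without both libraries.

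**Figure D5:**
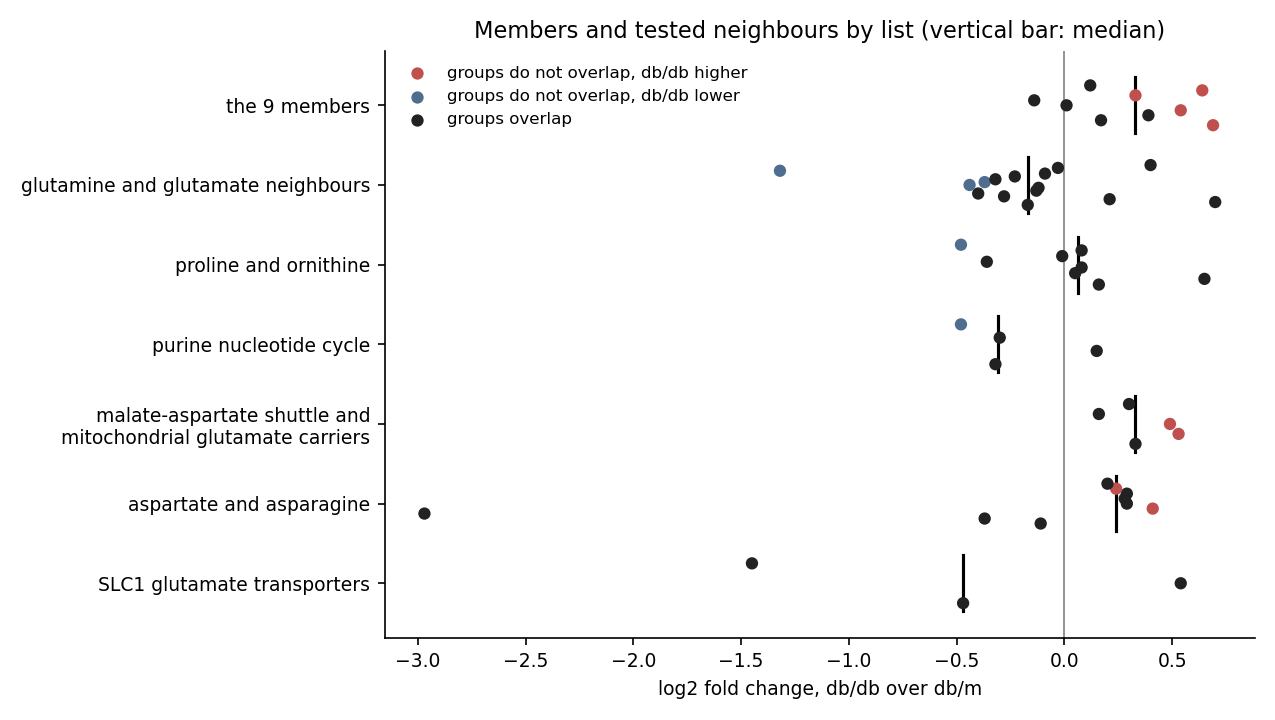
Log2 fold change of db/db over db/m for the 9 genes and for 44 tested neighbours in 6 lists, one point per gene, with a vertical bar at each median. Red points are genes whose db/db libraries all lie above the db/m libraries, blue points the reverse, and black points overlap. With all 8 libraries the 9 have a median of 0.33 and the glutamine and glutamate neighbours -0.17.

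Genes were also ranked by how closely their log2 CPM followed the pair of members with the smallest p over the 8 libraries, among 8670 coding genes with at least 10 CPM. For Glul the first were Dnajb4, a heat shock cochaperone, and Scfd2, with Pearson's r of 0.961 and 0.960 and Spearman's rho of 0.786 and 0.905. Without the libraries farthest from the median of Glul, db/db replicates 1 and 2, r was 0.911 and 0.915. For Adssl1 they were Rab12, a small GTPase, Sgca, alpha-sarcoglycan of the muscle membrane, and Ptov1, with r of 0.996, 0.996 and 0.995 and rho of 0.952, 0.976 and 0.976, and r of 0.975, 0.965 and 0.959 without db/m replicates 1 and 3. These describe shared profiles over 8 libraries that also share genotype, depth and, for Adssl1, the low value of db/m replicate 3.

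The stretches upstream of the 4 genes whose genotypes did not overlap are given so that their letters can be set beside each other. They come from RefSeq promoter windows on GRCm38.p6, of which 8 of the 9 genes were matched by symbol (all but Gpt), and run up to 250 bases before the start site, shortened where an exon in the deposited table begins earlier. The stretches are chr1:153899679-153899928, plus strand, for Glul, chr12:112619797-112620044, plus strand, for Adssl1, chr8:95888548-95888651, minus strand, for Got2 and chr7:132576399-132576648, minus strand, for Oat. Capitals mark CCAAT or GGGCGG on either strand.
Glul: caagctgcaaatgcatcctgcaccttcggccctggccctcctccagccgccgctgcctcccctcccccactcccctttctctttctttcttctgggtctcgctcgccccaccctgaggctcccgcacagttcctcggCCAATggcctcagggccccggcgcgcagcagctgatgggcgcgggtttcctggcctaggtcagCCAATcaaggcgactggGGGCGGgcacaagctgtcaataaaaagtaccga
Adssl1: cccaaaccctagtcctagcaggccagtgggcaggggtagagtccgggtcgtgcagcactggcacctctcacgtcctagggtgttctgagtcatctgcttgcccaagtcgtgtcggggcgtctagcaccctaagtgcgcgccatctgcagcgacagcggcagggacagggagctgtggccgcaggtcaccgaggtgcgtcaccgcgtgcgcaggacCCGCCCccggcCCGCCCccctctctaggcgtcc
Got2: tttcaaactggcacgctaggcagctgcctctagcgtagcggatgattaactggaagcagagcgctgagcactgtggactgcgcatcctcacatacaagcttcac
Oat: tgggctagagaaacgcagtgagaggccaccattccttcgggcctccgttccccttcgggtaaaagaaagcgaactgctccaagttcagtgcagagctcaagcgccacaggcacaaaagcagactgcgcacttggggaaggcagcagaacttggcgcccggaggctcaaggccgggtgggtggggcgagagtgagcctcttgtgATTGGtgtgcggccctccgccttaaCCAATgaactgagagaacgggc

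No motif was common to the 4. CCAAT stood in the 250-base windows of Glul, Oat and Got1 and in 34.5% of 27025 windows, 1 per gene, and GGGCGG in those of Glul, Adssl1, Glud1 and Gpt2 and in 32.9%. TATAAA was found in the window of Got2 (12.97% of windows), outside the printed stretch, and TGATGNAA, the element of the amino acid response factor ATF4, in that of Got1 (3.53%). No match to CACGTG, TNAAGGTCA or GTAAACA was found in the 8 windows, searched on both strands, where the shares were 6.05%, 1.14% and 3.09%, nor to a PPAR direct repeat, a MEF2 element or a glucocorticoid response element, with shares of 0.04%, 0.14% and 0.0%. Matches of different motifs did not overlap in these windows. A match is a description of the letters and not a sign of binding.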

How the data were processed

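The authors deposited raw counts, whole numbers for each Ensembl gene in each library, not pooled. The 8 single-sample files held the same counts as the series table. The build was mm10, per the submitters' processing notes. Libraries were made from 3 µg of total RNA with the NEBNext Ultra kit, per the labels' protocols. The sources used here do not give the aligner, counter, annotation release or strand setting. The exon length of each gene, another value in the deposited table, was used per kilobase. Symbols came from GENCODE M21 for 55480 of 55573 identifiers.

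Counts were tested across all genes with edgeR 4.0.16 in R 4.3.3 (filterByExpr, minimum count 10 and minimum total 15; TMM; robust quasi-likelihood F test on genotype, two-sided; Benjamini-Hochberg, threshold 0.05), after a check on simulated data. DESeq2 1.42.0 and limma 3.58.1 were alternatives. Limma-voom used sample quality weights, and its weight for db/m replicate 3 was 0.124. Ratios used counts plus 0.5 and exact permutation (scipy 1.17.1). Pseudogenes were matched with BLAST 2.17.0 at 95% identity over at least 0.5 of their length. No same-genotype pair matched within sampling noise. Replicate numbers were shared between genotypes, but same-numbered libraries did not deviate together (correlations of -0.145 to 0.106), so they were not paired.

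The members, lists, alternatives and motifs were chosen with earlier results of these data known. Named neighbours are up to 3 per list with the smallest p, those used in a ratio, and Ampd1 and Mdh1, singled out after their values were seen. A ratio and some genes that this rule names are not reported here. Marker lists for 11 cell types were summed.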

Additional observations from a re-analysis of the deposited data

How the results depend on the processing

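Over 19 alternatives the log2 fold changes of Glul (0.57 to 0.74), Adssl1 (0.33 to 0.78), Got2 (0.23 to 0.67), Oat (0.24 to 0.40), Glud1 (0.10 to 0.22) and Gpt2 (-0.32 to -0.05) kept their sign. None of these 6 was called in the main test, and Glul was called in 3 alternatives. Gpt changed sign with limma-voom (-0.14), without db/m replicates 1 and 3 (-0.26) and with the gene length trend removed (-0.03), and ran from -0.18 (without db/m replicate 3) to 0.16 leaving out 1 library, with -0.0029 and -0.03 when db/db replicate 1 and db/db replicate 4 were the ones omitted. Slc25a12 did so with limma-voom (-0.00012) and without db/m replicates 1 and 3 (-0.09), as did Got1 there (-0.00097). The cause was not tested.

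The number of members called was 1 with DESeq2 and limma-voom, and 0 to 1 leaving out 1 library. The number with an unadjusted p under 0.05 was 2 to 4, and the median log2 fold change 0.14 to 0.40, leaving out 1 library. That number was 5 with limma-voom (2489 of 17411 tested genes) and 5 without db/m replicates 1 and 3 (1916 of 17971). In both settings Gpt2, lower in db/db, was among the 5. The median was 0.15 with limma-voom and 0.10 without db/m replicates 1 and 3. DESeq2 called 1 neighbour, Abat. Over all genes edgeR called 1, and the number was 377 with DESeq2, 101 with limma-voom, 27 with no filter, 5 with the replicate block, 46 without db/m replicates 1 and 3, 12 with the gene length trend removed and 0 to 106 leaving out 1 library.

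The ratio of Slc25a12 to Slc25a13 had a difference of -0.05, which was 0.01 without db/m replicates 1 and 3 and -0.09 to 0.03 leaving out 1 library. With 4 pairs the replicate block allows no exact p below 0.125, and it changed no call of a member or ratio; Glul had an adjusted p of 0.266 with it in edgeR. The lowest count of a member in a library was 244, of Gpt.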
